A study of Mus musculus with 2 samples.

Results

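Transcripts of 37 ribosome biogenesis genes were followed across 12 cell classes of the mouse ileal crypt. The genes were taken from a fixed list of names, which was chosen with earlier results of these data known. They include subunits of RNA polymerase I, snoRNA-guided modification complexes, nucleolar chaperones and assembly factors of both ribosomal subunits. All 37 names were found among the 31053 genes of the single-cell RNA-seq matrices, and all 37 passed the filter on low counts. The cells came from 1 group, Atoh1CreER-T2;R26RTom mice, in which a tamoxifen-dependent recombinase driven from Atoh1 switches on a heritable red reporter. The mice received 2 intraperitoneal injections of 1 mg/mL tamoxifen with 24 h between them. Ileal crypts were taken 12 h after the last one, and red (Tom+), viable cells were sorted from them. The labels call the mice WT, and there were 2 libraries, replicate 1 and replicate 2, with 5305 and 6257 cells that the authors had assigned to a class. All cells analysed here share this genotype and treatment, so the comparisons run between classes within these libraries. They ask how the ribosome-building machinery differs between stem cells, progenitors and their maturing progeny.

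Ribosomes are built in the nucleolus, where RNA polymerase I transcribes a long ribosomal RNA precursor. Box C/D and box H/ACA ribonucleoproteins methylate and pseudouridylate that RNA, and large processing complexes cut it while ribosomal proteins are added. In the intestinal crypt, stem cells and their dividing daughters renew the epithelium throughout life, and making ribosomes is one of the main costs of cell growth.

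The authors' class names were kept, and the labels do not spell them out. ISC were read as intestinal stem cells, SEC-PRO as secretory and ENTERO-PRO as enterocyte progenitors, and GOBLET-PRE, PANETH-PRE and EEC-PRE as precursors of goblet, Paneth and enteroendocrine cells. GOBLET and PANETH were read as the mature cells, EC as enterochromaffin cells, NON-EC as other enteroendocrine cells and TUFT as tuft cells. GP was left unread. Marker genes matched the names in most classes. Summed unscaled markers of stem, goblet, Paneth, enteroendocrine and tuft cells and of enterocytes were each highest in a class of that lineage. Those of SEC-PRO were highest in GP (667 and 636 CPM, against 560 and 553 CPM in SEC-PRO). Olfm4, a stem cell marker, reached 1802 and 842 CPM (the usual depth-scaled count, with the scaling described further on) in ISC and at most 340.4 CPM in any other class. Atoh1, the secretory fate gene behind the reporter, had 110 and 91.7 CPM in SEC-PRO, against 15.4 and 20.5 CPM in ISC. It did not set SEC-PRO (mean 101 CPM) apart from GOBLET (206), PANETH-PRE (126), GOBLET-PRE (119), GP (114) or PANETH (98.9). Lgr5, another stem cell marker, was as high in PANETH (77.4 and 38.6 CPM) as in ISC (59.0 and 36.1 CPM). Of 6 immune, 5 stromal and 3 red blood cell markers, Cd74, an antigen presentation gene, was seen in every class (134 to 1452 CPM, with 1327 and 956 CPM in ISC). Vim and Pecam1, of mesenchymal and endothelial cells, reached 838 and 36.5 CPM in EC, and Ptprc, of leukocytes, 27.3 CPM in TUFT. Lyz2 stayed at or below 10.9 CPM, and the remaining 9 (Cd3e, Cd79a, Csf1r, Col1a1, Col3a1, Pdgfra, Hba-a1, Hbb-bs and Hbb-bt) at or below 3.03 CPM in every class, with Col3a1 and Pdgfra at 0. Classes held between 42 and 2318 cells per library, and UMIs (unique molecular identifiers, one per captured transcript) were summed per class and library into 24 sums of 129631 to 13770059. The libraries share 12 cell barcodes.

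Together the 37 members held 178098 UMIs, and their share of all UMIs differed widely between classes. It was highest in ISC, at 0.658% in replicate 1 and 0.621% in replicate 2, followed in both libraries by SEC-PRO with 0.412% and 0.458% and by EEC-PRE with 0.395% in each. GP (0.325% and 0.331%), TUFT (0.321% and 0.385%), EC (0.278% and 0.340%) and NON-EC (0.254% and 0.366%) overlapped one another. PANETH-PRE stood at 0.225% and 0.262%, ENTERO-PRO at 0.185% and 0.216%, and GOBLET-PRE at 0.190% and 0.203%. The mature secretory cells were lowest, PANETH with 0.0523% and 0.0646% and GOBLET with 0.0376% and 0.0550%. Exact (Clopper-Pearson) 95% binomial intervals, which cover counting error only, were 0.649 to 0.667% for ISC and 0.0286 to 0.0486% for GOBLET in replicate 1.

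A share depends on what else a cell makes. In PANETH the 20 most abundant genes held 81.5% and 79.0% of all UMIs, in GOBLET 53.8% and 52.4%, and in PANETH-PRE 38.6% and 37.6%. Counted per cell, PANETH had 11.5 and 8.50 member UMIs, close to GOBLET-PRE (11.3 and 6.96) and ENTERO-PRO (9.90 and 9.53), and the PANETH cells had medians of 23375 and 12874 UMIs in all. ISC had 37.5 and 26.9 member UMIs per cell and GOBLET 1.38 and 1.52. In these sums, less RNA of a gene per cell and more RNA of other genes cannot be told apart.

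**Figure D1:**
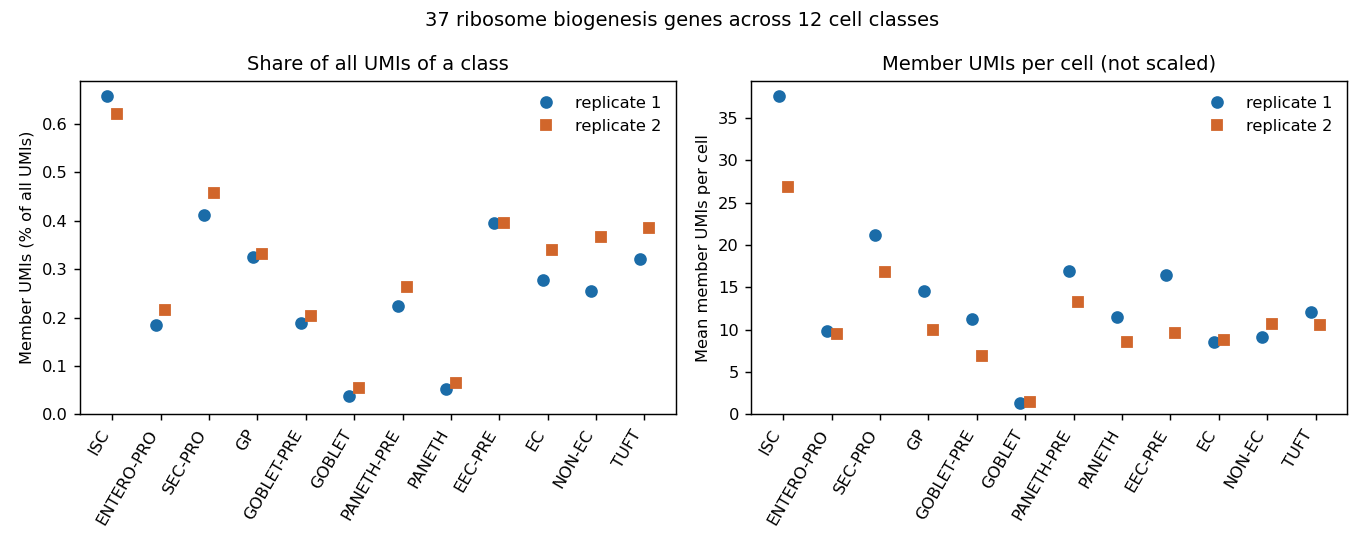
Member UMIs in each of 12 classes, as a percent of all UMIs of the class (left) and as the mean number per cell (right); each point is 1 library. ISC lies highest in both panels, whereas PANETH lies near the bottom on the left (0.0523% and 0.0646%) but not on the right (11.5 and 8.50 UMIs per cell).

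For comparisons between classes, counts were scaled by factors that discount the few very abundant secretory transcripts (TMM over abundant genes), and levels are given as CPM on that scale. The summed level of the members was 5040 ± 308 CPM in ISC (SD, n = 2 libraries, as for all following levels), 3411 ± 291 in SEC-PRO and 3159 ± 24.9 in EEC-PRE. It was 2825 ± 254 CPM in PANETH-PRE, 2665 ± 330 in TUFT, 2587 ± 82.4 in GP, 2432 ± 346 in EC, 2398 ± 174 in PANETH and 2381 ± 598 in NON-EC. GOBLET-PRE (1777 ± 84.6 CPM) and ENTERO-PRO (1762 ± 161) were lower, and GOBLET lowest at 681 ± 154. SEC-PRO and EEC-PRE, each pair of neighbours from PANETH-PRE down to NON-EC, and GOBLET-PRE and ENTERO-PRO differed by less than 1 SD of the more variable class. Ncl and Npm1, nucleolin and nucleophosmin, held 42.0% of all member UMIs. Without them ISC (2651 ± 19.8 CPM), SEC-PRO (1964 ± 241) and GOBLET (401 ± 106) kept their places, whereas EEC-PRE stood at 1428 ± 176 CPM, below PANETH-PRE (1764 ± 187), PANETH (1637 ± 117), GP (1599 ± 127) and TUFT (1515 ± 222).

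The members did not all follow that order. ISC had the highest mean of the 12 classes for 24 of 37 members, and for 19 in both libraries. The 24 included all box C/D proteins, all box H/ACA proteins and all nucleolar chaperones and scaffolds. PANETH was highest for Polr1a (catalytic subunit of RNA polymerase I), Ltv1, Bop1, Wdr74 and Ddx21, and PANETH-PRE for Polr1b, Heatr1 and Rrp12. EC was highest for Utp15 and Gnl2, NON-EC for Polr1c and Bysl, and EEC-PRE for Nob1. Some of these ranks lay within the SD, and none was tested. Wdr74 had 14.5 ± 5.12 CPM in PANETH, against 14.5 ± 2.90 in ISC. Heatr1 had 25.8 ± 10.2 CPM in PANETH-PRE, against 24.9 ± 1.56 in ISC. ISC was highest in a single library for Wdr74, Polr1b, Heatr1, Polr1c and Nob1, and in neither library for the rest of these members. GOBLET had the lowest counted level for 34 of 37, but ranks that rest on few counts there are not firm. A count of 0 allows up to 11.4 CPM, and for only 4 of the 11 members at 0 does that limit lie below GOBLET-PRE. Nop16, 1 of these 4, had 7.32 CPM in EEC-PRE, under the limit. Another 11 members had 1 to 3 counts in GOBLET. Among them, Heatr1 had 4.94 ± 6.98 CPM in GOBLET, against 5.04 ± 7.13 in EEC-PRE.

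Over the 24 sums, Pearson's r between log2 levels of 2 members had a median of 0.393 and ran from -0.585 to 0.926 over 666 pairs. The r of a member with the summed level of the other 36 is a description over sums that share libraries, depth and scaling. It was 0.97 for Nop58, 0.91 for Ncl and 0.90 for Fbl, and over 0.7 for 15 members. For 12 members it was under 0.35, and for 5 below 0, the lowest being Gnl2 (-0.36) and Bysl (-0.46). A prior count of 2 was added to each count before the log, which raises low counts most in sums of few UMIs, such as GOBLET. Without it Bysl had 16.0 CPM in ISC and 14.2 CPM in GOBLET, and Gnl2 had 30.0 and 33.3 CPM. The part of the prior count in the low r values was not tested. Nop58 and Fbl belong to the box C/D particle, and Ncl acts in early processing of the precursor RNA. Bysl, a factor of the small subunit, overlaps exons of Ccnd3 on the opposite strand, and reads of an overlapping pair cannot be told apart if strand was not used in counting, a setting that no source here gives.

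Outside the members and the fixed gene lists, the 10 genes most like the summed member level (Pearson's r over 24 sums, among 3814 genes) were led by Rpsa (0.92), Hspe1 (0.91), Rpl15 (0.91) and Ptma (0.89). Rpsa and Rpl15 encode ribosomal proteins, Hspe1 a mitochondrial chaperonin and Ptma prothymosin alpha. Of 55 other ribosome biogenesis genes in this ranking, 8 were among the first 100 genes.

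**Figure D2:**
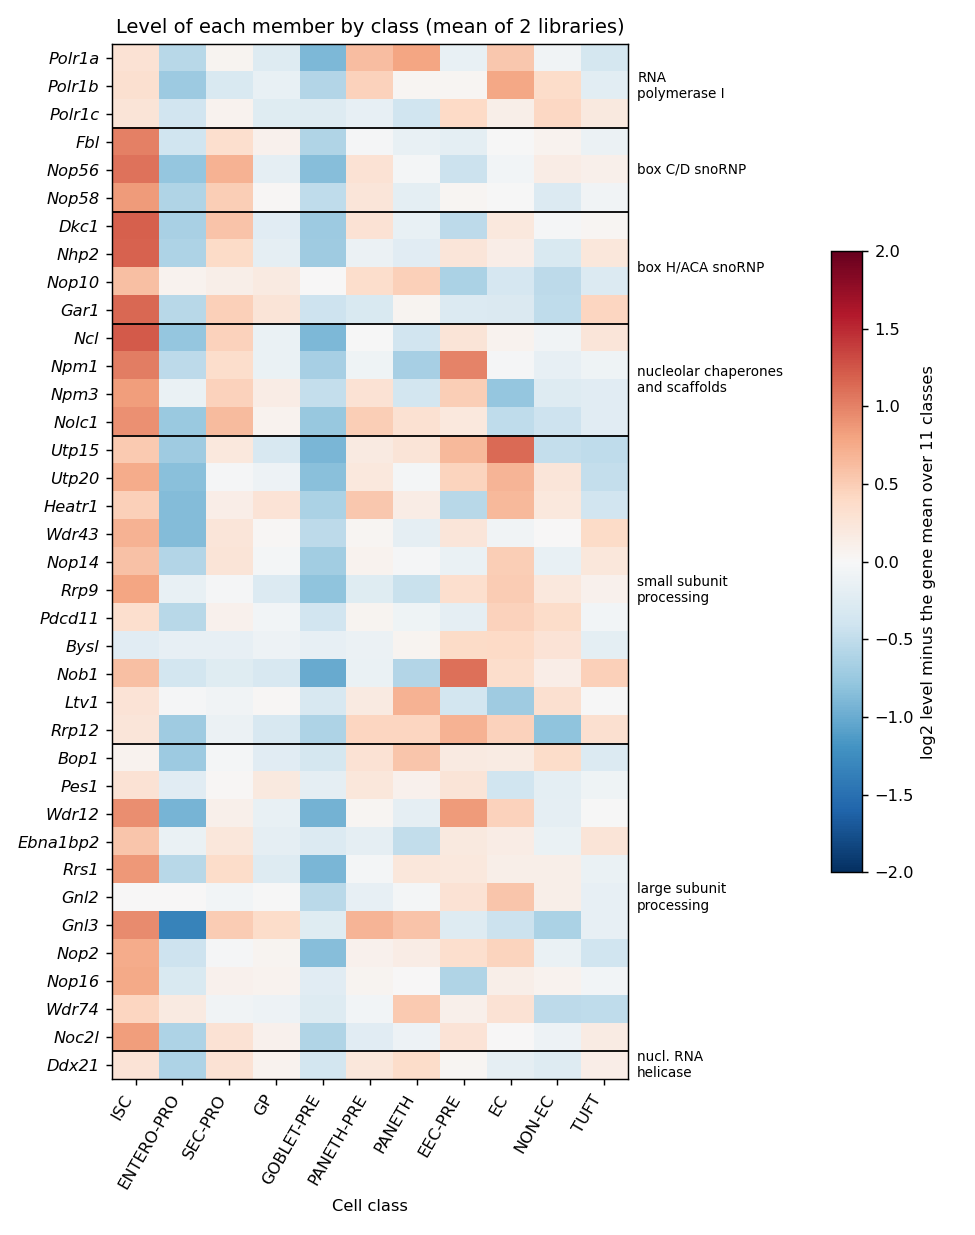
Level of each of the 37 members in 11 classes, as mean log2 scaled CPM (prior count of 2) minus the gene's mean over these classes. Values are means of 2 libraries, red is higher and blue lower, and rows are grouped by role. GOBLET is not drawn because only 186 member UMIs were counted there. ISC is red for box C/D, box H/ACA and chaperone genes, while ENTERO-PRO and GOBLET-PRE are blue in most rows and EEC-PRE is red for Npm1 and Nob1.

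In secretory progenitors most members were lower than in stem cells, including all box C/D and box H/ACA proteins. Of 37 members, 24 fell in SEC-PRO relative to ISC, where 15.2% of all genes tested fell, and 0 rose, where 19.3% of all genes rose (edgeR quasi-likelihood test, Benjamini-Hochberg over 10994 genes, adjusted p under 0.05). No member was higher at an unadjusted p under 0.05, nor with DESeq2, by which 25 fell. Members had a median log2 difference of -0.44, and all genes one of 0.02. Both SEC-PRO libraries lay below both ISC libraries for 27 members, and the share of all genes that did so was not counted.

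Among the box H/ACA proteins, which pseudouridylate ribosomal RNA, all 4 fell. Nhp2, one of the core proteins, had 105 and 113 CPM in SEC-PRO, against 204 and 175 CPM in ISC (log2 -0.79 ± 0.11 SE, edgeR adjusted p = 3.72e-09). Dkc1, the pseudouridine synthase itself, had 57.1 and 53.5 CPM in SEC-PRO, against 96.0 and 76.4 in ISC (log2 -0.62 ± 0.12). Gar1 and Nop10 fell by 0.66 and 0.48 on the log2 scale. For each of the 4, both SEC-PRO libraries lay below both ISC libraries, again without a count over all genes.

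All 3 box C/D proteins fell too. Fbl, fibrillarin, the methyltransferase of the particle, had 103 and 123 CPM in SEC-PRO, against 196 and 164 CPM in ISC (log2 -0.66 ± 0.11, edgeR adjusted p = 9.37e-07). Its scaffold proteins Nop56 and Nop58 fell by 0.38 and 0.34. Of the chaperones and scaffolds, Ncl had 678 and 842 CPM in SEC-PRO, against 1287 and 1269 CPM in ISC (log2 -0.76 ± 0.10). Npm1, a histone and ribosome chaperone, had 733 and 640 CPM in SEC-PRO, against 1306 and 917 CPM in ISC (log2 -0.68 ± 0.09). Its relative Npm3 fell by 0.37, and Nolc1, a snoRNP chaperone of the nucleolus, did not pass (log2 -0.26, adjusted p = 0.0565).

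Of 11 factors of the large subunit 8 fell. Wdr12, which forms the PeBoW complex with Pes1 and Bop1, had 23.0 and 27.0 CPM in SEC-PRO, against 48.4 and 41.4 CPM in ISC (log2 -0.82 ± 0.15, edgeR adjusted p = 3.50e-06). Its partners did not pass, Pes1 with a log2 difference of -0.28 and Bop1 with -0.09. Nop2, a ribosomal RNA cytosine methyltransferase, had 14.7 and 18.1 CPM in SEC-PRO, against 31.9 and 24.4 CPM in ISC (log2 -0.75 ± 0.17). Of 11 factors of the small subunit 5 fell, Nob1, the endonuclease of the last cut of small subunit RNA, by most (log2 -0.84 ± 0.18; 13.9 and 17.8 CPM in SEC-PRO, against 30.9 and 26.7 CPM in ISC). Of the RNA polymerase I subunits Polr1b fell by 0.65, while Polr1a (-0.24) and Polr1c (-0.16) did not pass. Ddx21, an RNA helicase of the nucleolus, had 131 and 181 CPM in SEC-PRO, against 133 and 176 CPM in ISC, a log2 difference of 0.01 with an SE of 0.11.

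The wider machinery was counted from a list of 130 other ribosome biogenesis genes, of which 128 were tested. In SEC-PRO, 41 fell and 2 rose relative to ISC, with a median log2 difference of -0.25. The smallest p-values were those of Cd3eap, a polymerase I subunit (-1.23), Mrto4 (-0.85) and Rrp15 (-0.99). Utp11 (0.47) and Mphosph6 (0.51) rose. Of 30 cytosolic ribosomal protein genes 29 fell, with a median of -0.37. Genes of mitosis went the other way, 21 of 22 being higher in SEC-PRO (median log2 0.55), and an Mki67 UMI was seen in 64.0% and 58.5% of SEC-PRO cells thinned to 2000 UMIs, against 40.6% and 41.7% of ISC cells. Mki67, a proliferation marker, had 684 and 604 CPM in SEC-PRO, against 325 and 330 CPM in ISC. Of 6 goblet cell markers 5 rose in SEC-PRO (median log2 1.68), with summed unscaled levels of 42110 and 39358 CPM in SEC-PRO, against 9677 and 15874 CPM in ISC, and their part in the members' differences was not tested.

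The classes were assigned by the authors from the expression of the same cells, which the p-values do not take into account, and no label states if each library is from its own mouse. Without the library term in the model 10 members passed, where 1917 of all 10994 genes passed in either direction.

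**Figure D3:**
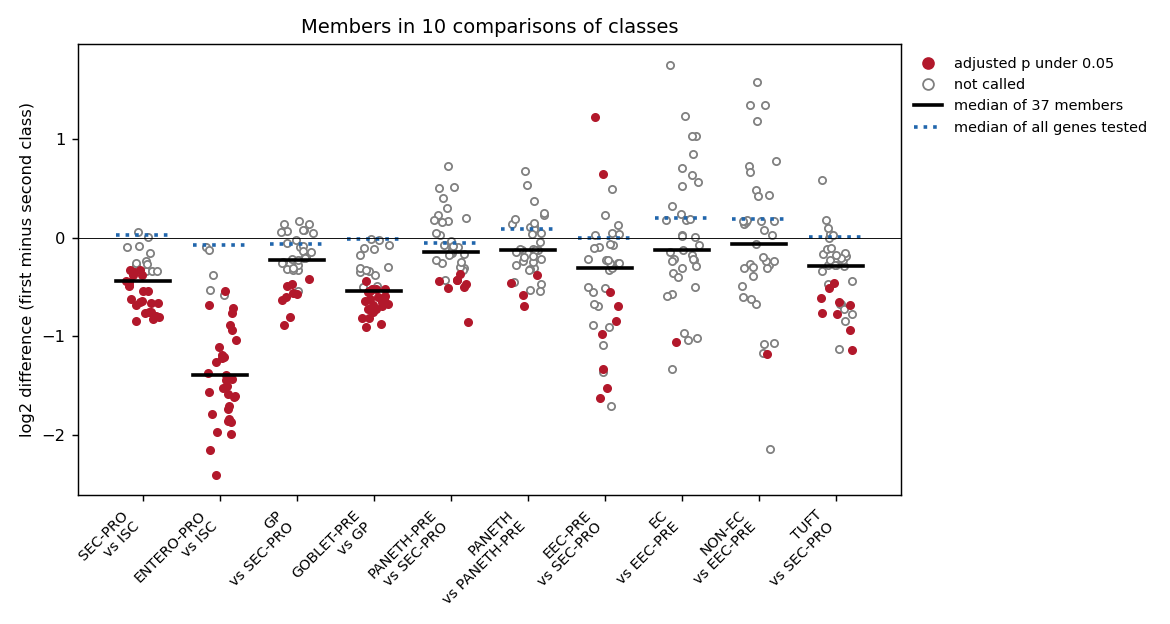
Log2 difference of each member in 10 comparisons of classes, the first-named class minus the second; filled points passed the edgeR test at an adjusted p of 0.05, black bars are medians of the 37 members and dotted bars medians of all genes tested. ENTERO-PRO against ISC lies lowest (median -1.39), and only EEC-PRE against SEC-PRO has filled points above 0.

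In enterocyte progenitors too most members were lower than in stem cells. In ENTERO-PRO 32 of 37 fell relative to ISC, where 18.4% of all genes fell and 18.7% rose, and 0 members rose by edgeR, by DESeq2 or at an unadjusted p under 0.05. The median log2 difference was -1.39 for the members and -0.07 for all genes. Gnl3, nucleostemin, a GTPase of stem and cancer cell nucleoli, had 24.0 and 26.4 CPM in ENTERO-PRO, against 144 and 126 CPM in ISC (log2 -2.40 ± 0.20, edgeR adjusted p = 1.18e-17). Ncl had 265 and 385 CPM in ENTERO-PRO, against 1287 and 1269 CPM in ISC (log2 -1.99 ± 0.11). Wdr12 (-2.15), Dkc1 (-1.97), Nop56 (-1.87) and Nhp2 (-1.86) also fell. All 3 polymerase I subunits and all box C/D, box H/ACA and chaperone members passed, and Ddx21 fell by 0.94.

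The 5 members that did not pass in ENTERO-PRO were Gnl2 (log2 -0.09), Bysl (-0.12), Ltv1 (-0.37), Bop1 (-0.53) and Wdr74 (-0.58). Of the other 128 biogenesis genes 82 fell, among them Tcof1, a polymerase I cofactor (-2.11), Pa2g4 (-1.29) and Mybbp1a (-1.63). Eif6, an anti-association factor of the large subunit, was the 1 that rose (0.33). All 30 ribosomal protein genes fell, with a median of -0.51, as did all 22 genes of mitosis, with a median of -2.95. ENTERO-PRO held 118 and 179 cells. All 6 enterocyte markers rose there (median log2 6.63), with summed unscaled levels of 7303 and 4039 CPM in ENTERO-PRO, against 41.5 and 93.3 CPM in ISC. So did 5 of 6 goblet cell markers (median log2 2.19), with sums of 51787 and 54416 CPM in ENTERO-PRO, against 9677 and 15874 CPM in ISC. The part of goblet cell transcripts in the ENTERO-PRO values was not tested.

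Myc, the transcription factor best known for driving ribosome biogenesis genes, was measured in the same sums. It had 12.2 and 7.39 CPM in SEC-PRO, against 37.7 and 22.8 CPM in ISC (log2 -1.58 ± 0.19, edgeR adjusted p = 1.31e-10). ENTERO-PRO had 5.64 and 3.30 CPM (log2 -2.72 ± 0.43 relative to ISC, adjusted p = 1.95e-07). Of 10 tested genes of the MYC network, Mxd4 (0.83), Mxd3 (1.34) and Mlx (0.42) rose in SEC-PRO and Myc alone fell. In ENTERO-PRO 5 rose, led by Mxd1, a MYC antagonist, with 241 and 166 CPM, against 8.10 and 16.9 CPM in ISC (log2 3.94), Mxi1 (1.31) and Mxd4 (1.08). Myc, Mga (-0.94) and Mxd3 fell there, Mxd3 being at 0 in both ENTERO-PRO libraries. Mycn stayed at or below 2.33 CPM in every class. In GP relative to SEC-PRO the log2 difference of Myc was 0.01 with an SE of 0.26.

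MYC with MAX binds the E-box, whose letters CACGTG read the same on both strands. The E-box was searched in 300 bases around RefSeq gene starts (250 before and 50 after, GRCm38.p6). Of the 31 members with an entry, 5 held one (16.1%), against 8.09% of 27025 genes. The other ribosome biogenesis genes held one in 20 of 109 (18.3%) and ribosomal protein genes in 4 of 22 (18.2%). The 5 sites are printed because their letters are those of the motif and the genes differ in whether they fell between ISC and SEC-PRO; the motif is in capitals, the first base of the gene counting as position 1 and the base before it as -1. They lie at chr10:13193092-13193121 on the minus strand (Ltv1, motif from position 29), chr6:125131811-125131840 on the plus strand (Nop2, from -60), chr11:3963965-3963994 on the plus strand (Pes1, from 3), chr10:88826765-88826789 on the minus strand (Utp20, from 38) and chr17:71616220-71616249 on the plus strand (Wdr43, from 18).
Ltv1: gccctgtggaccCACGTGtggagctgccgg
Nop2: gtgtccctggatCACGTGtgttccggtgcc
Pes1: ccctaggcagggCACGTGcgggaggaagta
Utp20: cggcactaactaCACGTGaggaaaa
Wdr43: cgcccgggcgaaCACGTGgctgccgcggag
Of these genes Nop2 (-0.75), Utp20 (-0.75) and Wdr43 (-0.45) fell in SEC-PRO relative to ISC, and Pes1 (-0.28) and Ltv1 (-0.32) did not pass. A match in these windows is a description of letters and not of binding.

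In GP a smaller set of members was lower, among them the most abundant ones. In GP 9 of 37 fell relative to SEC-PRO, where 12.7% of all genes fell and 4.38% rose, and 0 members rose by edgeR, by DESeq2 (8 fell) or at an unadjusted p under 0.05. Medians of the log2 difference were -0.22 for the members and -0.07 for all genes. Nop56 had 56.4 and 73.1 CPM in GP, against 110 and 126 CPM in SEC-PRO (log2 -0.88 ± 0.12, edgeR adjusted p = 1.60e-08). Dkc1 had 34.9 and 28.3 CPM in GP, against 57.1 and 53.5 CPM in SEC-PRO (log2 -0.80 ± 0.15). Rrs1 (-0.64), Ncl (-0.60), Nhp2 (-0.57), Nolc1 (-0.56), Npm1 (-0.49), Nop58 (-0.47) and Ebna1bp2 (-0.42) made up the rest. Of the other biogenesis genes 24 of 128 fell and 0 rose, led by Exosc8 (-1.61), Tcof1 (-1.09) and Utp3 (-0.72). None of 11 small subunit factors or 3 polymerase I subunits passed. Over the same step all 22 genes of mitosis fell, with a median of -4.34, and Mki67 had 46.8 and 57.9 CPM in GP. Of 30 ribosomal protein genes 0 passed in either direction. Without the library term 3 members passed, where 859 of all 10994 genes passed in either direction.

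Goblet precursors were lower again for most members. In GOBLET-PRE 23 of 37 members fell relative to GP, where 4.48% of all genes fell and 4.91% rose, and 0 members rose by edgeR, by DESeq2 (19 fell) or at an unadjusted p under 0.05. Members had a median of -0.54 on the log2 scale and all genes one of -0.02. Both GOBLET-PRE libraries lay below both GP libraries for 29 members, and the share of all genes that did so was not counted. Nolc1 had 41.7 and 43.1 CPM in GOBLET-PRE, against 75.6 and 74.7 CPM in GP (log2 -0.82 ± 0.13, edgeR adjusted p = 1.14e-06). Ncl had 281 and 308 CPM in GOBLET-PRE, against 481 and 513 CPM in GP (log2 -0.75 ± 0.10). Nop2 (-0.90), Heatr1 (-0.88) and Wdr12 (-0.82) fell by most. Members that fell by role were all 3 box C/D and all 4 chaperone genes, 3 of 4 box H/ACA, 5 of 11 small subunit and 6 of 11 large subunit genes, 1 of 3 polymerase I subunits and Ddx21.

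Of the other biogenesis genes 39 of 128 fell and 0 rose, led by Mybbp1a (-0.89), Tcof1 (-0.88) and Ftsj3 (-0.90). Of 30 ribosomal protein genes 0 passed, with a median of -0.11, and 5 of 22 genes of mitosis fell. The count of members depends on the model: without the library term 0 passed, where 116 of all 10994 genes passed in either direction. The scaling without TMM factors gave a median of -0.74 for the members, with all genes at -0.21.

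The mature GOBLET class held too few UMIs for most members. Only 186 member UMIs were counted in its 42 and 84 cells: 11 members were at 0, 11 had 1 to 3 counts and 15 had more. Of 37, 12 fell relative to GOBLET-PRE, where 3.86% of all genes fell and 8.21% rose, and 0 members rose by edgeR, by DESeq2 (9 fell) or at an unadjusted p under 0.05. Npm1 had 98.7 and 111 CPM in GOBLET, against 371 and 313 CPM in GOBLET-PRE (log2 -1.66 ± 0.24, edgeR adjusted p = 4.87e-08). Ncl had 148 and 204 CPM in GOBLET, against 281 and 308 CPM in GOBLET-PRE (log2 -0.74 ± 0.21). Wdr43, a factor of the small subunit processome, had 19.7 and 18.5 CPM in GOBLET, against 50.8 and 108 CPM in GOBLET-PRE (log2 -2.17 ± 0.48).

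A count of 0 over both GOBLET libraries allows up to 3 counts, or 11.4 CPM. Against that limit Npm3 was at least 3.48-fold lower in GOBLET than in GOBLET-PRE, Pdcd11 at least 2.99-fold, Nop16 at least 1.63-fold and Rrs1 at least 1.44-fold. With the 11 members at 0 set to their limit, the median log2 difference was -0.71. All 30 ribosomal protein genes fell in GOBLET, with a median of -1.56. In simulated counts 12% of genes lowered by 1 on the log2 scale were called in this comparison, so a member that did not pass may still differ. The simulated GOBLET sums had the profile of GOBLET-PRE, without the very abundant transcripts of GOBLET, so the real share called may be lower. Without the library term 7 members passed, where 1069 of all 10994 genes passed in either direction.

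On the Paneth branch fewer members passed, and the counts moved with the scaling. In PANETH-PRE 8 of 37 fell relative to SEC-PRO, where 15.2% of all genes fell and 11.9% rose, and 0 rose, with 2 higher at an unadjusted p under 0.05. Their median log2 difference was -0.14, against -0.06 for all genes. Gar1 had 29.0 and 21.5 CPM in PANETH-PRE, against 55.0 and 36.4 CPM in SEC-PRO (log2 -0.86 ± 0.21, edgeR adjusted p = 0.000814). Nhp2 (-0.51), Noc2l (-0.50), Ncl (-0.47), Ebna1bp2 (-0.44), Npm1 (-0.43), Nop56 (-0.43) and Fbl (-0.37) also fell. Polr1a had 30.3 and 33.0 CPM in PANETH-PRE, against 17.0 and 28.3 CPM in SEC-PRO (log2 0.51, adjusted p = 0.0609), and Polr1b was 0.73 higher without passing (adjusted p = 0.0959). With TMM over all genes and with DESeq2's size factors, 5 members passed as lower and 1, Polr1a, as higher (log2 0.55 and 0.56). DESeq2, and edgeR on cells thinned to 2000 UMIs, called 3 members, DESeq2 with 0 higher. No member passed without the library term, and 26 fell when CPM were not scaled, a setting that moved the median of all genes to -0.62.

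In PANETH 4 members fell relative to PANETH-PRE, where 2.79% of all genes fell and 5.36% rose, and 0 rose, with 1 higher at an unadjusted p under 0.05. They were Npm3 (log2 -0.69), Npm1 (-0.58), Nop58 (-0.46) and Ncl (-0.38). Npm1 had 350 and 328 CPM in PANETH, against 550 and 468 CPM in PANETH-PRE (edgeR adjusted p = 6.64e-05). The median of the members was -0.13 and that of all genes 0.09. Ltv1, a factor of small subunit export, had 41.0 and 42.4 CPM in PANETH, against 30.3 and 27.3 CPM in PANETH-PRE (log2 0.53, adjusted p = 0.183). Of 30 ribosomal protein genes 24 fell, with a median of -0.47. DESeq2 called 2 members lower and 0 higher, and 0 passed without the library term or on thinned cells. Unscaled CPM called all 37 lower, with the median of all genes at -1.71.

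In enteroendocrine precursors 7 of 37 members fell relative to SEC-PRO, where 10.6% of all genes fell. The 2 members that rose are a smaller share (5.41%) than the 12.7% of all genes that rose. DESeq2 called 5 lower and 2 higher. All 3 box C/D proteins fell: Nop56 had 33.6 and 63.7 CPM in EEC-PRE, against 110 and 126 CPM in SEC-PRO (log2 -1.33 ± 0.28, edgeR adjusted p = 0.000135), and Fbl and Nop58 fell by 0.69 and 0.55. Dkc1 had 23.5 and 13.7 CPM in EEC-PRE, against 57.1 and 53.5 CPM in SEC-PRO (log2 -1.52 ± 0.40, adjusted p = 0.00231). Nop10 (-0.84), Gnl3 (-0.97) and Nop16 (-1.62) were the others. For each of these 7, picked by the test, the groups did not overlap, and how many of all genes did so was not counted.

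Npm1 was 1 of the 2 that rose. It had 1260 and 892 CPM in EEC-PRE, against 733 and 640 CPM in SEC-PRO (log2 0.65 ± 0.11, edgeR adjusted p = 2.72e-06), which put EEC-PRE at 1076 CPM on average, next to ISC at 1111 CPM. Npm1 shares at least 90 bases at 95% identity or more near its 3′ end with 5 other annotated genes, so its counts may be split with them. Nob1 had 47.0 and 22.8 CPM in EEC-PRE, against 13.9 and 17.8 CPM in SEC-PRO (log2 1.23 ± 0.43, adjusted p = 0.0258), and did not pass on thinned cells, on which 5 members passed in all. Ncl had 578 and 733 CPM in EEC-PRE, against 678 and 842 CPM in SEC-PRO, and did not pass. Over the same step 22 of 30 ribosomal protein genes rose, with a median of 0.38, and all 22 genes of mitosis fell. Of the other biogenesis genes 5 rose, Nop53 (1.11), Nsa2 (0.63), Lsg1 (1.26), Xrn2 (0.69) and Imp4 (0.93), and 11 fell, led by Tcof1 (-1.47), Eif6 (-0.84) and Tsr1 (-1.57). EEC-PRE held 57 and 73 cells.

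In the hormone-producing cells Npm1 was lower again, and it was the 1 member that passed. EC had 565 and 474 CPM, against 1260 and 892 CPM in EEC-PRE (log2 -1.06 ± 0.14, edgeR adjusted p = 2.22e-08), where 2.87% of all genes fell and 4.65% rose. NON-EC had 452 and 497 CPM, against the same EEC-PRE values (log2 -1.18 ± 0.13, adjusted p = 1.45e-11), where 3.56% of all genes fell and 6.06% rose. The comparisons share their EEC-PRE sums. No member rose in either, with 0 higher in EC and 2 higher in NON-EC at an unadjusted p under 0.05 and 0 by DESeq2, which called 2 lower in EC and 1 in NON-EC. Of the stromal markers, the 2 tested both rose in EC and 1 rose in NON-EC; the summed unscaled level of all 5 was 1111 and 747 CPM in EC and 229 and 82.2 CPM in NON-EC, against 4.23 and 0 CPM in EEC-PRE, and its part was not tested. All 30 ribosomal protein genes fell in both, with medians of -0.82 and -0.78. The medians of the members were -0.12 in EC and -0.06 in NON-EC, and in replicate 2 alone 0.014 and 0.036, while all genes had medians of 0.20 and 0.18.

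**Figure D4:**
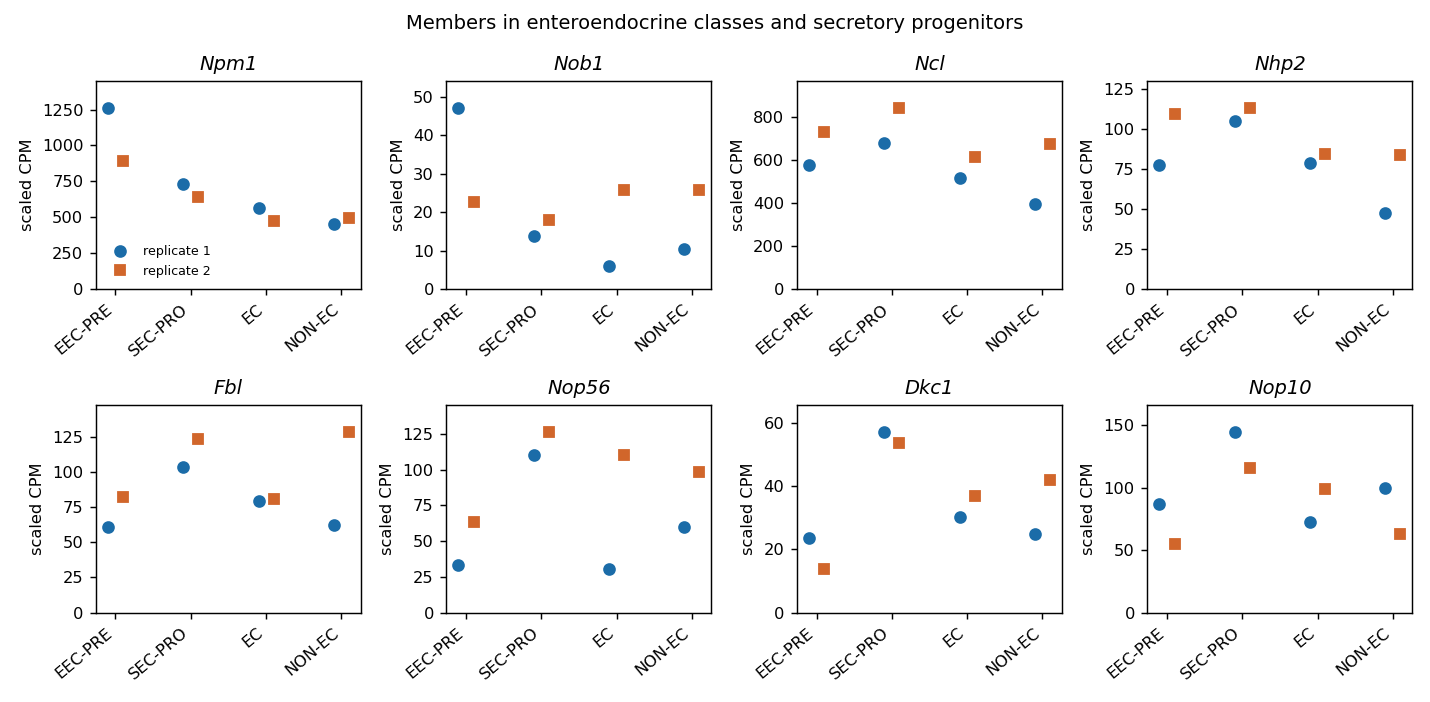
Scaled CPM of 8 members in EEC-PRE, SEC-PRO, EC and NON-EC; each point is 1 library and each axis starts at 0. Npm1 and Nob1 are higher in EEC-PRE than in SEC-PRO in both libraries, whereas Fbl, Nop56, Dkc1 and Nop10 are lower.

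In tuft cells 9 of 37 members fell relative to SEC-PRO, where 13.7% of all genes fell and 13.2% rose, and 0 members rose by edgeR, by DESeq2 (6 fell) or at an unadjusted p under 0.05. The members had a median of -0.28 on the log2 scale, and all genes had a median of 0.01. Nolc1 had 47.2 and 72.8 CPM in TUFT, against 97.8 and 127 CPM in SEC-PRO (log2 -0.94 ± 0.19, edgeR adjusted p = 4.60e-05). All 3 box C/D genes (-0.65 to -0.51), Npm3 (-0.77), Gnl3 (-0.76), Dkc1 (-0.68), Npm1 (-0.46) and Utp15 (-1.13) made up the rest. Without the library term 5 passed, where 2154 of all 10994 genes passed in either direction. Of the other biogenesis genes 13 fell, led by Tcof1 (-1.56), Nifk (-1.10) and Ruvbl2 (-0.85), and Xrn2 rose (0.59). Of the 2 immune markers tested here 1 rose and 1 fell, with summed unscaled levels of 263 and 399.5 CPM in TUFT, against 735 and 741 CPM in SEC-PRO, and their part was not tested.

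Members were compared within ISC and within SEC-PRO between cells with and without an Mki67 UMI, after each cell was thinned to 2000 UMIs. In both classes 0 members passed, where 2.14% and 2.36% of 7675 genes did (edgeR on 12 sums with 5 residual degrees of freedom; DESeq2 was not run here). The 12 sums include ENTERO-PRO split in the same way, which enters the estimate of the spread and whose sums with Mki67 held only 10000 and 24000 UMIs. At an unadjusted p under 0.05, Utp15 was higher and Fbl lower in ISC with Mki67, and Nop2 and Npm1 were lower in SEC-PRO with Mki67. The median log2 difference of the members, cells with minus cells without an Mki67 UMI, was -0.08 in ISC and -0.14 in SEC-PRO. Ncl differed by 0.03 with an SE of 0.13 in ISC and by -0.01 with an SE of 0.13 in SEC-PRO. Of 21 genes of mitosis, 20 were higher in ISC cells with Mki67 and 21 in SEC-PRO cells, which splitting on a proliferation marker largely sets. Of 21 genes of DNA replication and its onset (G1/S), 0 were higher and 1 was lower in each class, with medians of -0.08 and -0.19. The split therefore cannot tell dividing from non-dividing cells, and whether the members follow division was not tested. The difference between the Mki67 effects of SEC-PRO and ISC passed for 0 members, with 0 also at an unadjusted p under 0.05.

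Per 2000 UMIs, ISC cells with an Mki67 UMI had 13.0 and 13.0 member UMIs on average, against 13.2 and 12.8 in ISC cells without one. SEC-PRO cells with Mki67 had 8.04 and 9.005, against 8.62 and 9.89 without. GP cells with Mki67 had 7.83 and 7.95, against 6.46 and 6.51 without, and GOBLET-PRE cells with Mki67 had 5.18 and 4.75, against 3.72 and 3.92 without. These GP and GOBLET-PRE values come from 60 to 85 cells with Mki67 per library and were not tested. At this depth an absent Mki67 UMI does not show an absent transcript. Barcodes of at most 50 UMIs, which hold mostly free RNA, held the members at 3164 and 3373 unscaled CPM, and the part of free RNA in these levels was not tested.

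**Figure D5:**
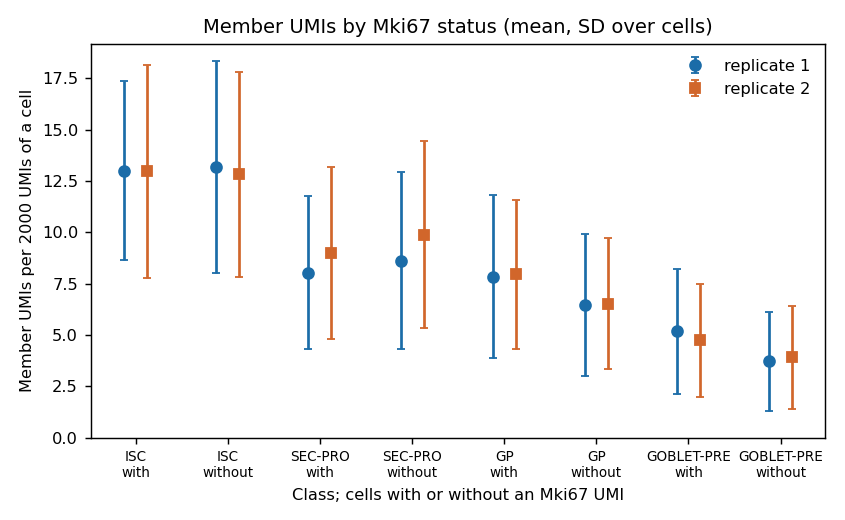
Member UMIs per cell thinned to 2000 UMIs, in cells with (left of each pair) and without an Mki67 UMI; points are means of 1 library and bars are SDs over cells. ISC lies between 12.8 and 13.2 and SEC-PRO between 8.04 and 9.89 whichever the Mki67 status.

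Libraries differed for some members beyond class. Wdr43 was higher in replicate 2 in all 11 classes other than GOBLET, with a median ratio to replicate 1 of 2.14 (1.83 to 3.33). Nop56, Polr1a and Ddx21 were also higher in replicate 2 in all 11, with median ratios of 1.42, 1.35 and 1.33. The library term takes up such shared differences, and the SDs given above include them. Of the members, 17 overlap a gene on the opposite strand, among them Nop56, Dkc1, Nhp2, Gnl3 and Wdr12, 8 share a stretch near their 3′ end with another gene, among them Nop56, Nop58, Fbl and Npm1, and 6 carry 19 snoRNA genes within them, among them Nop56 with 5 and Nop58 with 4.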

How the data were processed

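Single-cell RNA-seq libraries were made from sorted Tom+ ileal crypt cells. The authors deposited UMI counts, not normalized, for every barcode of both libraries; Cell Ranger 3.0.2, STAR and mm10 are named in the submitters' processing notes. The authors' cell table gives the class of each cell and, per the file headers, the percent of mitochondrial UMIs, which was used for no cut. How the authors filtered cells, treated doublets and assigned classes is not stated in the labels.

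The members and gene lists were chosen with earlier results of these data known. Counts were summed per class and library (24 sums) and fitted in R 4.3.3 with edgeR 4.0.16 (glmQLFit, robust; 11 residual degrees of freedom; median biological coefficient of variation 0.0641), with class and library as terms, after filterByExpr (10994 genes kept). TMM factors came from genes with average log2 CPM of at least 6. They were 0.230 and 0.256 for PANETH. A prior count of 2 entered log2 levels only. Sums of 1 library come from the same physical sample, which pairs the classes: over 66 pairs of classes the library differences correlated with a median of 0.309 (0.0668 to 0.766) across 3814 genes. P-values measure the spread left after the library term, pooled over the 12 classes, and not the shared difference between the 2 libraries. Any member could be named; from other lists the 3 smallest p-values in the leading direction and all genes of the opposite direction, where 5 or fewer, could be, plus the 10 genes most like the summed level and Myc, Mycn, Mki67, Lgr5, Olfm4 and Atoh1. Alternatives were TMM over all genes, unscaled CPM, DESeq2 1.42.0 (its size factors, and its test), no filter, no library term, cells thinned to 2000 UMIs and each library alone. The fit was tested on simulated data: of 50 genes lowered by 1 on the log2 scale it called 96% in SEC-PRO against ISC and 72% in PANETH against PANETH-PRE. Of 50 genes lowered by 0.5 it called 56% and 30%. Simulated sums of the first class had the profile of the second, at the full depth of the first. The real PANETH sums, with TMM factors of 0.230 and 0.256, left fewer UMIs for most genes. The 72% and 30% may therefore be too high for PANETH. Genes of low level, which include several members, were not among those changed. Replicate 1 had 32656481 UMIs in listed cells (median 5706 per cell) and replicate 2 had 27014983 (median 3503); 375 and 901 cells fell under 2000 UMIs. Coordinates of promoters are RefSeq's on GRCm38.p6. Overlaps and copies are from GENCODE M21 on the same assembly, counting 90 bases or more at 95% identity in the last 300 bases.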

Additional observations from a re-analysis of the deposited data

How the results depend on the processing

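The medians of the members kept their sign under the alternatives run, except in PANETH (thinned cells) and in EC and NON-EC (1 library left out). Without the replicate block (library term), members called were 10 in SEC-PRO against ISC, 3 in GP against SEC-PRO, 0 in GOBLET-PRE against GP, 7 in GOBLET against GOBLET-PRE, 0 in PANETH-PRE against SEC-PRO, 0 in PANETH against PANETH-PRE and 5 in TUFT against SEC-PRO. In the same order, 1917, 859, 116, 1069, 1784, 283 and 2154 of all 10994 genes were called in either direction. Unscaled CPM called 24 in GOBLET, 26 in PANETH-PRE and 37 in PANETH, with member medians of -0.74 in GOBLET-PRE, -0.70 in PANETH-PRE, -1.95 in PANETH and -0.23 in TUFT. In cells thinned to 2000 UMIs, 3 were called in PANETH-PRE, 0 in PANETH, 5 in EEC-PRE and 2 in EC, and medians were -0.57 in GOBLET-PRE, 0.042 in PANETH and -0.38 in TUFT. DESeq2's test called 3 in PANETH-PRE, 2 in PANETH and 2 in EC, and its size factors gave 2 in EC (median -0.27) and 2 in NON-EC. TMM over all genes gave medians of -0.50 in GOBLET-PRE, -0.18 in PANETH, -0.45 in EEC-PRE and -0.29 in EC, with 2 members called in EC. The cause of these moves was not tested.

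With 1 library left out, medians ran from -0.55 to -0.32 in SEC-PRO, -1.65 to -1.24 in ENTERO-PRO, -0.31 to -0.16 in GP, -0.55 to -0.52 in GOBLET-PRE, -7.40 to -1.89 in GOBLET (members at 0 counts set the lower value), -0.20 to -0.08 in PANETH-PRE, -0.19 to -0.13 in PANETH, -0.50 to -0.34 in EEC-PRE, -0.15 to 0.014 in EC, -0.24 to 0.036 in NON-EC and -0.36 to -0.29 in TUFT. Members that passed before or after the change changed sign only with unscaled CPM: Nop10 (-0.34) and Gnl3 (-0.40) in PANETH-PRE, and in PANETH Polr1a (-1.66), Nop10 (-1.70), Gar1 (-1.45), Utp15 (-1.76), Bysl (-1.62), Ltv1 (-1.29), Bop1 (-1.56), Rrs1 (-1.59), Gnl2 (-1.71), Nop2 (-1.77), Wdr74 (-1.12), Noc2l (-1.73) and Ddx21 (-1.69). Members that passed in neither changed sign elsewhere too, most often on thinned cells (48 values over the 11 comparisons) and with TMM over all genes (20). TMM over all genes and DESeq2's size factors each called 1 member higher and 5 lower in PANETH-PRE. Depth limits GOBLET (42 and 84 cells), EC (42 and 83) and EEC-PRE most.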
